A study of Mus musculus with 12 samples.

Results

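The genes described here are 35 mouse genes of the interferon response, followed by RNA sequencing through the reprogramming of fibroblasts to pluripotent cells. They are a list of named genes of that pathway, drawn up with earlier results of these data known, and all 35 were among the 23420 genes counted. All 35 also passed the filter on low counts and belong to the 14770 genes tested. By role they comprise 3 genes of the receptor and its kinase, 7 transcription factors, 3 RNA sensors or their partners, 15 antiviral effectors, 4 membrane proteins and 3 genes of the Parp and Dtx3l group.

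The series holds 12 libraries, 3 in each of 4 groups. MEF are mouse embryonic fibroblasts, Stage1 is day 6 of reprogramming, Stage2 is day 6 followed by 4 more days, and iPSC are established induced pluripotent stem cells. All libraries share a mixed C57BL/6 x 129 strain, and the series text says that every group except MEF was sorted for Oct4-GFP, a green reporter of the pluripotency gene Oct4. No source used here gives the reprogramming factors, the number of lines or whether replicates came from separate cultures. The p-values therefore measure only the spread between these libraries. Groups were taken from the sample titles, because the stage among the sample characteristics names another group in 12 of 12 libraries, and the sorting label moves with it (libraries titled Stage1 carry the label unsorted). The libraries titled MEF held fibroblast markers at a summed 29120 to 37800 CPM (counts scaled to 1e+06 gene reads) and pluripotency markers at 5.79 to 6.26. The other 9 libraries held fibroblast markers at no more than 1675 CPM and pluripotency markers at 3599 or more. These markers set MEF apart as titled, while the names Stage1, Stage2 and iPSC rest on the titles.

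Type I interferons are secreted proteins that bind the receptor formed by Ifnar1 and Ifnar2. The kinases Tyk2 and Jak1 then phosphorylate transcription factors such as Stat2, which joins Irf9 in a complex that binds the interferon-stimulated response element in the promoters of antiviral genes. Sensors such as the proteins of Ddx58 (RIG-I) and Ifih1 (MDA5) detect viral RNA and start interferon production through Irf3 and Irf7. Mouse pluripotent stem cells are known for making little interferon and for a weak response to it, whereas fibroblasts respond strongly.

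Gene reads came to between 8916223 and 19011944 a library, so that 3 counts, the floor used here, correspond to 0.158 to 0.336 CPM. The share of reads that fell in no gene had a mean of 9.21% in MEF and of 38.8% to 49.9% in the other 3 groups. The part of this difference in the results was not tested. Each library pools many cells, sorted for Oct4-GFP in every group except MEF by the series text. Fewer cells that express a gene and less RNA per cell therefore cannot be told apart. Levels below are CPM after TMM scaling, as single libraries in the order of their replicate numbers or as mean ± SD of 3 libraries. A change is a log2 fold change ± its standard error (SE), and a gene was called at an adjusted p below 0.05 in the quasi-likelihood test of edgeR, with Benjamini-Hochberg adjustment over all genes tested.

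The promoters of these genes are known for short elements bound by interferon-activated factors, so the stretches that hold such letters are shown for the 8 members with the largest changes among those that hold them. RefSeq promoter windows (GRCm38.p6, from 250 bases before to 50 bases after the start of transcription) were found for 29 of the 35 members. Both strands were searched for GAAANNGAA, the core of the interferon-stimulated response element. Each line gives 5′ to 3′ the strand of the gene, with each match in the stretch shown in capitals. A match on the opposite strand reads as its reverse complement.
Oas1a, chr5:120907506-120907570, minus strand: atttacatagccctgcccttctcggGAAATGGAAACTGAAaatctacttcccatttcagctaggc
Ifi44, chr3:151749886-151749938, minus strand: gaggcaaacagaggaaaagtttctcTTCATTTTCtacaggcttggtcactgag
Irf2, chr8:46739495-46739537, plus strand: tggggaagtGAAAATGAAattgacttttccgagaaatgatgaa
Isg15, chr4:156200851-156200921, minus strand: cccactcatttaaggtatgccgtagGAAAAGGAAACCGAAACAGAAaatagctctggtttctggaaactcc
Ifih1, chr2:62646334-62646392, minus strand: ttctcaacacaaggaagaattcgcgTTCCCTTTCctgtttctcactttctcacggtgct
Rsad2, chr12:26456538-26456596, minus strand: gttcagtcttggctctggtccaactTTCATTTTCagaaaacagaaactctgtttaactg
Stat2, chr10:128270252-128270310, plus strand: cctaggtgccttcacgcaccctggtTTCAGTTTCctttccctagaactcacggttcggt
Ifit1, chr19:34640755-34640838, plus strand: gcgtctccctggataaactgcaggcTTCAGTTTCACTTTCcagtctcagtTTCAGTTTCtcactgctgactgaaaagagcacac

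Of the 29 members with a window, 15 (51.7%) held the pattern, against 9.76% of the 27025 genes in the table and 8.38% of the 10733 tested genes in it. In Isg15 and Ifit1, 3 matches overlap or follow each other closely, and Oas1a holds 2 overlapping matches just before its start. The gamma-activated site TTCNNNGAA, which shares the letters GAA and can overlap the first pattern, stood in 12 of 29 members (41.4%) and in 9.55% of all genes in the table. The first pattern stood in members that moved in either direction, in 6 of the 7 members called higher and in 6 of the 14 called lower at Stage1. Among members called higher in iPSC than at Stage2, 2 of the 5 with a window held it. A match is only a run of letters, and no binding was measured in these libraries.

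At Stage1, 18 of the 35 members were lower than in MEF, 9 were higher and 8 did not pass the test. Over all genes tested, 36.1% were called lower and 44.2% higher, so the members (51.4% lower, 25.7% higher) lay above the background for lower calls and below it for higher calls. Without MEF replicate 2, 14 members were called lower, and the share of all genes in that fit is not given here. The median change of the members was -0.75 on the log2 scale, against 0.27 for all genes. Among the 18 were both receptor genes and 9 of the 15 effectors, such as Ifi27l1 and Ifit2, while the sensor Ddx58, its partner Trim25, Stat2, Bst2 and Ifitm1 were higher. A change of at least 2-fold was seen in 16 of those called lower and in 8 of those called higher.

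From Stage1 to Stage2, 9 members rose, 1 fell and 25 did not pass the test. The background was 20.6% of genes called higher and 19.8% called lower, against 25.7% and 2.86% of the members. The members called higher were the transcription factors Stat2, Irf1, Irf2 and Irf8, the kinase Tyk2, the effectors Oas2 and Oasl2, the membrane gene Ifitm1 and Dtx3l. Ddx58 alone was called lower, a call that was lost under other scalings. Fibroblast markers moved at the same steps: 10 of 12 were higher at Stage2 than at Stage1, with sums of 410 to 736 CPM at Stage1, 1364 to 1675 at Stage2 and 747 to 802 in iPSC. Their part in the members' changes was not tested. Over all genes, 51.1% of calls were in the higher direction with TMM scaling and 70.6% with library totals, under which 15 members were called higher and 0 lower. With library totals the all-gene median lay 0.20 higher (log2) in this comparison, 0.18 higher at Stage1 against MEF and 0.28 higher in iPSC against MEF.

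Between Stage2 and iPSC, 10 members were higher, 5 lower and 20 did not pass the test. Only 9.21% of all genes tested were called higher at this step and 8.87% lower, against 28.6% and 14.3% of the members. The 10 higher members were Irf7, Irf8, Usp18, Ifit2, Oas1a, Oas2, Eif2ak2, Rtp4, Ifi27l1 and Parp9, of which 7 are effectors. The 5 lower members were Irf1, Irf2, Ddx58, Trim25 and Ifitm1, and at the same step 8 of 12 fibroblast markers were lower. Over all genes, 50.9% of calls were higher with TMM scaling, 42.8% with RLE scaling and 34.1% with library totals, and the members stood at 10 higher and 5 lower with each of the 3 scalings. The 5 lower calls depended on single libraries: the count was 3 without Stage1 replicate 3, 2 without Stage2 replicate 1 or 2, 1 without iPSC replicate 1, 3 without iPSC replicate 2 and 2 without iPSC replicate 3.

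In iPSC compared directly with MEF, 18 members were higher, 10 lower and 7 not called. The background was 44.9% of genes called higher and 35.8% lower, against 51.4% and 28.6% of the members, a median change of 0.62 for the members and 0.29 for all genes. This comparison shares its libraries with those above. The mean level was highest in MEF for 14 members, in iPSC for 13, at Stage2 for 6 and at Stage1 for 2.

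**Figure D1:**
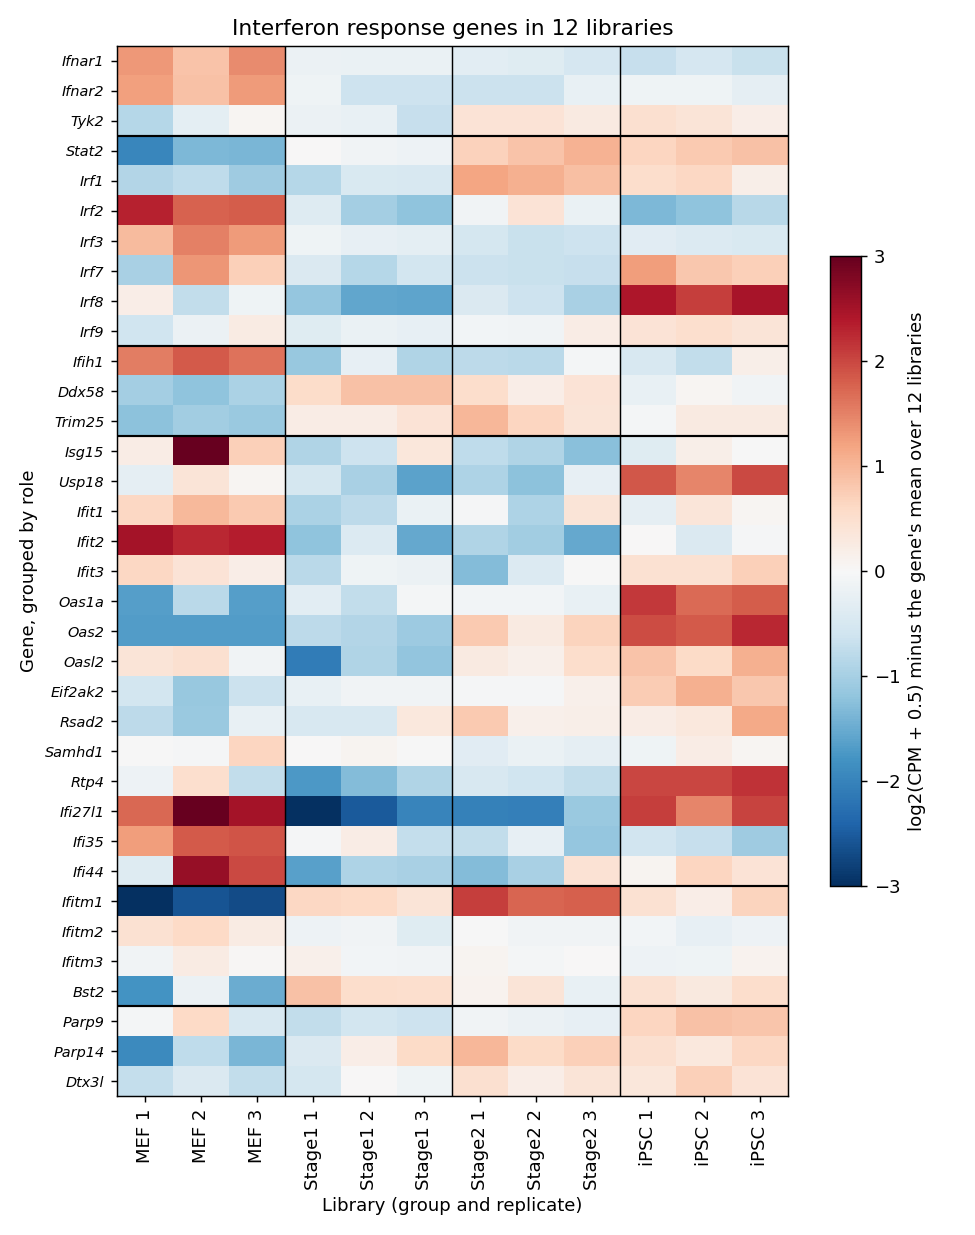
Level of each of the 35 members in the 12 libraries, shown as the colour-coded deviation of its log2 CPM from its own mean, with genes in rows by role and libraries in columns by group. Both receptor genes are highest in the MEF libraries, and Irf8, Rtp4 and Usp18 are highest in iPSC.

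**Figure D2:**
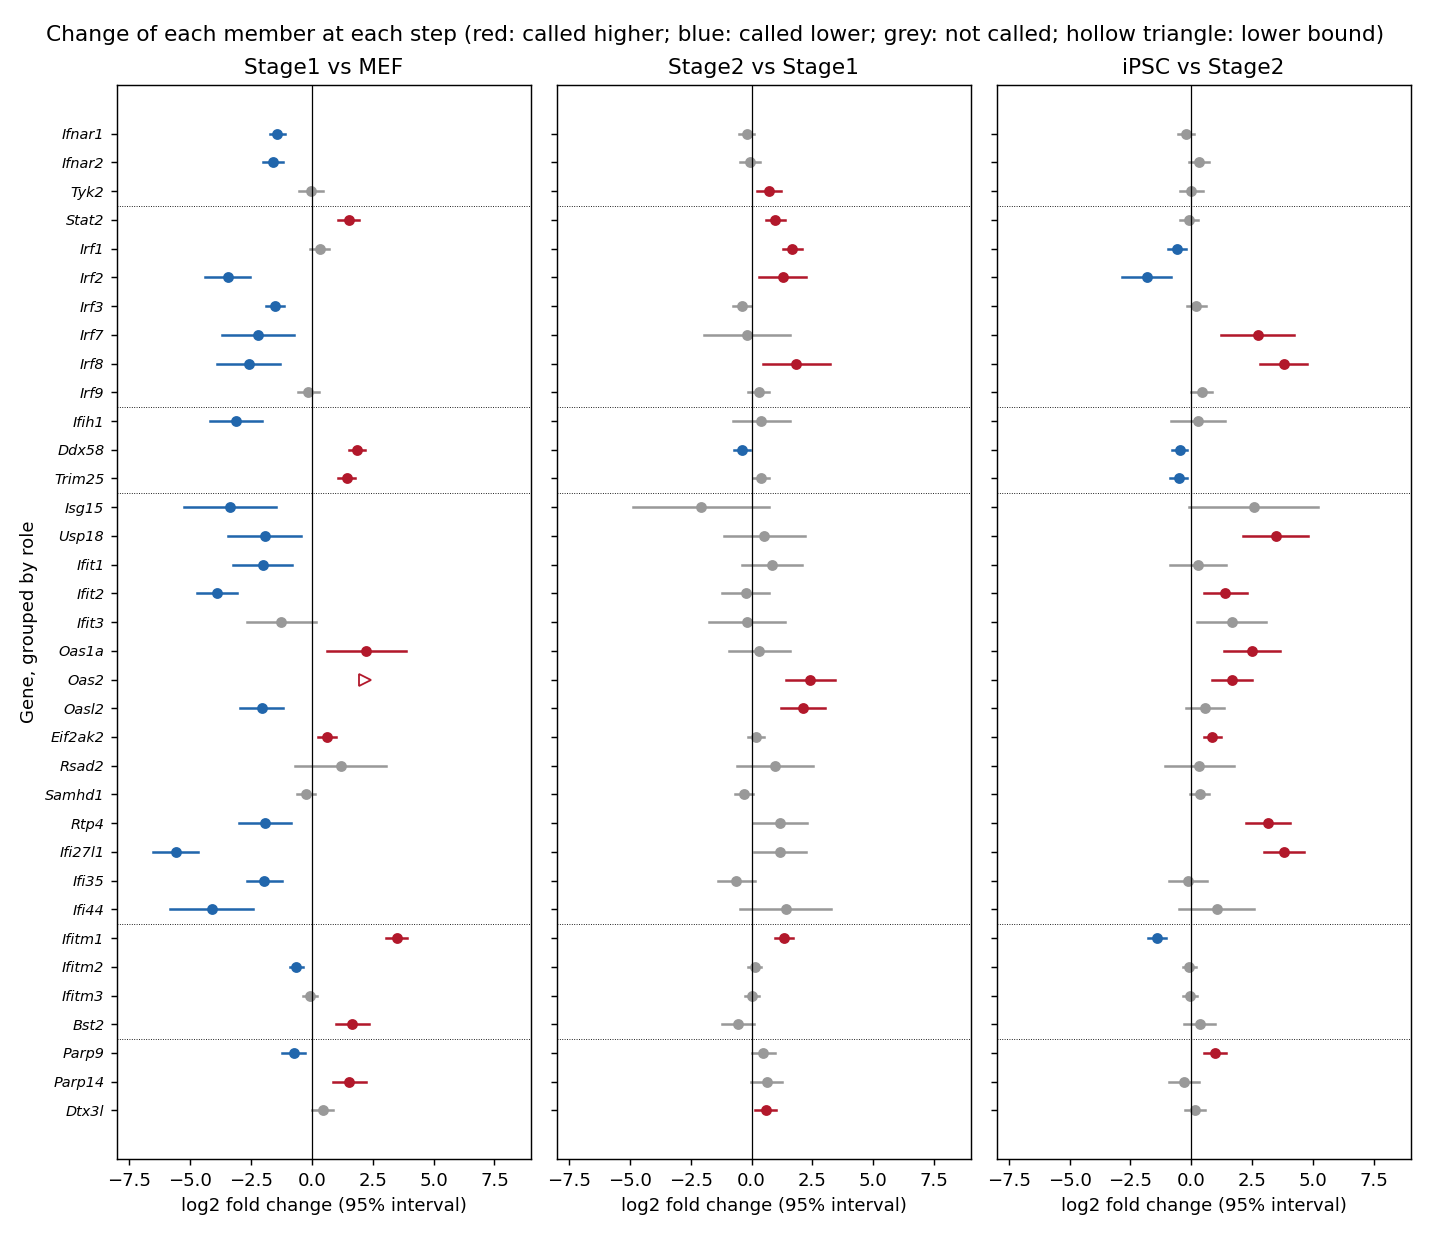
Log2 fold change of each member with its 95% interval (x axis) at the 3 consecutive steps, with red for called higher, blue for called lower and grey for not called. Blue points prevail at Stage1 against MEF (18 of 35), where Oas2, with no count in MEF, is a hollow triangle at its lower bound, and the red points at iPSC against Stage2 reach 3.80 (Irf8 and Ifi27l1).

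The receptor subunit genes were lower in every library of the 3 later groups than in every MEF library. Ifnar1 stood at 121, 89.5 and 132 CPM in MEF, 43.1, 42.5 and 42.8 at Stage1, 39.4, 38.1 and 34.3 at Stage2 and 30.1, 34.6 and 30.7 in iPSC. Its change at Stage1 against MEF was -1.42 ± 0.152 (edgeR adjusted p = 1.25e-07), and neither later step was called. Ifnar2, which lies 79649 bases away on chromosome 16, followed the same course. It was measured at 45.1, 34.97 and 46.4 CPM in MEF, 17.4, 12.2 and 12.1 at Stage1, 11.9, 11.99 and 16.1 at Stage2 and 17.3, 17.1 and 15.7 in iPSC. The change at Stage1 was -1.60 ± 0.200 (edgeR adjusted p = 9.26e-07). Tyk2, the kinase bound to Ifnar1, did not follow the receptor. Its mean was 11.5 ± 3.63 CPM in MEF, 11.4 ± 2.19 at Stage1, 18.8 ± 1.09 at Stage2 and 18.8 ± 1.85 in iPSC, and the rise at Stage2 was 0.72 ± 0.228 (edgeR adjusted p = 0.0178). This call was lost without Stage1 replicate 3 (adjusted p = 0.105), Stage2 replicate 1 (0.0547) or Stage2 replicate 2 (0.0545).

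Among the transcription factors, Stat2, which acts downstream of the receptor, rose at both early steps. It stood at 4.26, 6.69 and 6.63 CPM in MEF, 18.2, 16.6 and 16.2 at Stage1, 29.02, 33.00 and 37.5 at Stage2 and 28.5, 31.2 and 33.3 in iPSC, with no overlap between MEF, Stage1 and Stage2. The rise was 1.51 ± 0.198 at Stage1 (edgeR adjusted p = 1.68e-06) and 0.97 ± 0.184 at Stage2 (edgeR adjusted p = 0.000515), which left iPSC 5.19-fold above MEF. Irf9, the DNA-binding subunit of that complex, was called at no single step. Its level was 17.4 ± 5.28 CPM in MEF and 26.04 ± 0.990 in iPSC, a difference of 0.57 ± 0.204 (edgeR adjusted p = 0.0158). This was not called without MEF replicate 1 (0.36, adjusted p = 0.0875) or in a fit of only these groups (0.51, adjusted p = 0.0556). A fit of only Stage2 and iPSC called Irf9 higher in iPSC (0.37, edgeR adjusted p = 0.0496). Its exons overlap those of Rnf31.

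Irf1 and Irf2, an activator and its antagonist at the same DNA element, both peaked at Stage2 among the 3 later groups. Irf1 measured 12.4, 13.4 and 10.8 CPM in MEF, 12.7, 16.8 and 16.5 at Stage1, 53.8, 49.1 and 44.04 at Stage2 and 34.02, 36.1 and 26.5 in iPSC. The Stage2 libraries were above all others, by 1.68 ± 0.181 over Stage1 (edgeR adjusted p = 1.86e-06), and iPSC lay -0.60 ± 0.174 from Stage2 (edgeR adjusted p = 0.0251). The latter call was lost without Stage2 replicate 1 or 2 (adjusted p = 0.123 and 0.0802) and without iPSC replicate 1 or 3 (0.0789 and 0.123). Irf2 was highest in MEF, with 10.02, 6.69 and 6.93 CPM there, 1.11, 0.537 and 0.421 at Stage1, 1.47, 2.33 and 1.36 at Stage2 and 0.336, 0.417 and 0.680 in iPSC. Its change at Stage1 was -3.46 ± 0.439 (edgeR adjusted p = 1.14e-06). The later calls of Irf2 rested on single libraries: the rise at Stage2, 1.28 ± 0.456 (edgeR adjusted p = 0.0328), had an adjusted p of 0.116 without Stage1 replicate 2, 0.138 without Stage1 replicate 3 and 0.157 without Stage2 replicate 2. The change from Stage2 to iPSC, -1.84 ± 0.481 (edgeR adjusted p = 0.015), had an adjusted p of 0.0767 without Stage2 replicate 2, 0.078 without iPSC replicate 1 and 0.0623 without iPSC replicate 2.

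Irf3 and Irf7, the factors that switch on interferon genes, both fell at Stage1 and then parted. Irf3, present in resting cells, stood at 36.6, 54.1 and 46.5 CPM in MEF, 17.01, 15.8 and 15.2 at Stage1, 12.8, 11.6 and 12.03 at Stage2 and 14.6, 13.96 and 13.4 in iPSC. Its change at Stage1 was -1.52 ± 0.175 (edgeR adjusted p = 3.2e-07) and no later step was called, though its exons overlap Bcl2l12 on the opposite strand, whose reads cannot be told apart without a known strand setting. Irf7, itself induced by interferon, was scarce, with means of 1.41 ± 1.24 CPM in MEF, 0.310 ± 0.120 at Stage1, 0.278 ± 0.0176 at Stage2 and 1.88 ± 0.488 in iPSC. It was 4.61-fold lower at Stage1 than in MEF (edgeR adjusted p = 0.00839), but MEF replicate 1 held only 0.125 CPM and the adjusted p without MEF replicate 2 was 0.0686. It rose by 2.72 ± 0.710 from Stage2 to iPSC (edgeR adjusted p = 0.0148). That call was lost without any one of the Stage2 libraries (adjusted p from 0.0534 to 0.0606) or iPSC replicate 1 (0.064), with a change of 2.52 or more in each case. Exons of Irf7 overlap Phrf1 on the opposite strand.

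Irf8, an interferon-induced factor best known from macrophages and dendritic cells, was the transcription factor with the largest rise in iPSC. It stood at 1.50, 0.535 and 1.08 CPM in MEF, 0.277, 0.0895 and 0.0842 at Stage1, 0.782, 0.635 and 0.388 at Stage2 and 8.90, 6.81 and 9.19 in iPSC. Each iPSC library lay above all 9 others, at 3.80 ± 0.455 over Stage2 (edgeR adjusted p = 5.96e-05) and 8.23-fold above MEF. Its change at Stage1 was -2.59 ± 0.614 (edgeR adjusted p = 0.000916). The smaller rise from Stage1 to Stage2, 1.83 ± 0.652 (edgeR adjusted p = 0.0328), was lost without Stage1 replicate 2 or 3, or Stage2 replicate 1 or 2, with adjusted p of 0.112, 0.117, 0.0968 and 0.0801.

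The RNA sensors moved apart from each other. Ddx58 stood at 26.1, 22.9 and 27.6 CPM in MEF, 78.7, 99.97 and 99.7 at Stage1, 78.2, 61.3 and 72.1 at Stage2 and 45.95, 56.04 and 49.6 in iPSC, so that it was highest at Stage1 and still 1.98-fold above MEF in iPSC. The rise at Stage1 was 1.86 ± 0.154 (edgeR adjusted p = 4.09e-09) and the step to iPSC was -0.48 ± 0.149 (edgeR adjusted p = 0.0341). Between Stage1 and Stage2 it changed by -0.40 ± 0.148 (edgeR adjusted p = 0.0403), a call that was lost with RLE scaling, library totals, no filter and DESeq2, at adjusted p of 0.0811, 0.334, 0.0897 and 0.075. It was also lost without Stage1 replicate 2 or 3 (0.149 and 0.13), Stage2 replicate 2 or 3 (0.167 and 0.0742), iPSC replicate 3 (0.0525) or MEF replicate 1 (0.0564). The call at the step to iPSC was lost without Stage1 replicate 2 or 3, Stage2 replicate 1 or 3, or iPSC replicate 1 or 3, with adjusted p from 0.0519 to 0.177. Trim25, the ubiquitin ligase that activates RIG-I, was measured at 22.1, 25.2 and 24.1 CPM in MEF, 61.5, 61.2 and 69.8 at Stage1, 104, 81.5 and 68.8 at Stage2 and 50.1, 62.6 and 63.5 in iPSC. All later libraries of Trim25 lay above MEF, by 1.43 ± 0.164 at Stage1 (edgeR adjusted p = 3.1e-07). From Stage1 to Stage2 Trim25 changed by 0.40 and was not called (edgeR adjusted p = 0.0523). It was called higher there with DESeq2 (adjusted p = 0.0189), RLE scaling (0.0265), library totals (0.00498) and a fit of only these groups (0.0137). It was also called with no filter or a filter of 1 CPM in 3 libraries, and without Stage2 replicate 3 or any one MEF library. The other alternatives with the titles' groups left it uncalled. Its lower call in iPSC against Stage2 was lost without Stage1 replicate 3, Stage2 replicate 1 or 2, or any one of the iPSC libraries, with adjusted p from 0.0501 to 0.214. Ifih1, which senses long double-stranded RNA, went the other way, with 4.89, 6.15 and 5.31 CPM in MEF, 0.346, 1.07 and 0.505 at Stage1, 0.586, 0.564 and 1.29 at Stage2 and 0.840, 0.625 and 1.62 in iPSC. Its change at Stage1 was -3.10 ± 0.508 (edgeR adjusted p = 2.31e-05), and it was not called at a later step.

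Of the 15 effectors, 9 were lower at Stage1 than in MEF and 4 of these, Isg15, Ifit1, Ifi35 and Ifi44, were not called higher at a later step. Ifit2 belongs to a cluster of RNA-binding antiviral genes on chromosome 19 and had the highest level per kilobase of exon of the 3 Ifit genes in MEF. It stood at 15.9, 13.5 and 14.5 CPM in MEF, 0.760, 1.70 and 0.505 at Stage1, 1.07, 0.917 and 0.517 at Stage2 and 2.44, 1.67 and 2.38 in iPSC. The change at Stage1 was -3.90 ± 0.394 (edgeR adjusted p = 5.74e-08), and iPSC stayed 6.78-fold below MEF. Its rise from Stage2 to iPSC, 1.39 ± 0.418 (edgeR adjusted p = 0.0303), was lost without Stage2 replicate 2 (adjusted p = 0.0657) or 3 (0.126) and without iPSC replicate 1 (0.0933) or 3 (0.0841). Its neighbours were less abundant: Ifit1 fell from 2.32 ± 0.336 to 0.573 ± 0.310 CPM at Stage1 (edgeR adjusted p = 0.00339). Ifit3, 7112 bases from Ifit2, was called in no comparison and had a mean of 1.14 ± 0.237 CPM in MEF and 1.30 ± 0.204 in iPSC.

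Ifi35, which forms a complex with the interferon-induced protein Nmi, measured 10.02, 15.2 and 15.9 CPM in MEF, 3.80, 4.65 and 2.19 at Stage1, 2.15, 3.24 and 1.49 at Stage2 and 2.44, 2.22 and 1.62 in iPSC. Every MEF library exceeded every other library, and the change at Stage1 was -1.95 ± 0.341 (edgeR adjusted p = 4.67e-05). Ifi44, an interferon-induced GTP-binding protein gene, was uneven within MEF, at 1.00, 11.6 and 7.30 CPM, and stood at 0.138, 0.537 and 0.505 at Stage1, 0.293, 0.494 and 2.13 at Stage2 and 1.60, 2.57 and 2.13 in iPSC. Its change at Stage1 was -4.12 ± 0.808 (edgeR adjusted p = 0.000172). In iPSC against MEF it was -1.68 ± 0.660 (edgeR adjusted p = 0.0271), and this call was lost without MEF replicate 2 (-1.06, adjusted p = 0.17), MEF replicate 3 (adjusted p = 0.0688), iPSC replicate 1 (0.0864) or iPSC replicate 3 (0.0637). It was also lost with library totals (-1.37, adjusted p = 0.0614) and with no filter (-1.66, adjusted p = 0.051).

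Isg15 encodes a ubiquitin-like protein that is joined to other proteins during the interferon response. MEF replicate 2 held 11.9 CPM of it, against 0.877 in replicate 1 and 1.45 in replicate 3, and the highest of the 9 other libraries held 1.01. The change at Stage1, -3.36 ± 0.895 (edgeR adjusted p = 0.00245), became -1.36 (adjusted p = 0.117) without MEF replicate 2, and that of iPSC against MEF, -2.88 ± 0.854 (edgeR adjusted p = 0.00528), became -0.89 (adjusted p = 0.277). Usp18, the protease that removes the Isg15 protein and dampens receptor signalling, was lowest at Stage1 and Stage2. Its means were 1.10 ± 0.360 CPM in MEF, 0.274 ± 0.277 at Stage1, 0.403 ± 0.332 at Stage2 and 4.72 ± 0.923 in iPSC. The change at Stage1, -1.94 ± 0.710 (edgeR adjusted p = 0.0184), missed the threshold without Stage1 replicate 3 (adjusted p = 0.0679) or MEF replicate 2 (0.0555). The rise from Stage2 to iPSC was 3.47 ± 0.634 (edgeR adjusted p = 0.00168), with every iPSC library above all others.

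Further effectors also rose at the last step. Ifi27l1, an interferon-induced gene listed as Ifi27 in RefSeq, stood at 25.9, 63.5 and 44.3 CPM in MEF, 0.415, 0.895 and 1.51 at Stage1, 1.47, 1.41 and 3.17 at Stage2 and 33.1, 21.3 and 32.1 in iPSC. It was high at both ends and low between them, with a change of -5.59 ± 0.441 at Stage1 (edgeR adjusted p = 2.8e-09) and a rise of 3.80 ± 0.391 in iPSC over Stage2 (edgeR adjusted p = 2.25e-05). The MEF and iPSC libraries overlapped (edgeR adjusted p = 0.0759). Ifi27l1 was called lower in iPSC than in MEF without MEF replicate 1 (-0.93, edgeR adjusted p = 0.0107). The same held in a fit of only these groups (-0.71, edgeR adjusted p = 0.0464). Rtp4, an interferon-induced chaperone gene, was measured at 1.63, 2.81 and 0.904 CPM in MEF, 0.207, 0.448 and 0.758 at Stage1, 1.17, 1.06 and 0.905 at Stage2 and 8.90, 8.89 and 10.04 in iPSC. The iPSC libraries stood 3.15 ± 0.433 above Stage2 (edgeR adjusted p = 0.000181) and 5.18-fold above MEF. At Stage1 it had been lower than in MEF (edgeR adjusted p = 0.00209).

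The oligoadenylate synthetase genes make the signal that activates RNase L on contact with double-stranded RNA. Oas2 had no count in any MEF library and stood at 0.415, 0.358 and 0.253 CPM at Stage1, 2.25, 1.41 and 2.00 at Stage2 and 5.63, 5.21 and 7.14 in iPSC. Against the floor of 3 counts over the MEF group it was at least 4.57-fold higher at Stage1 and at least 78.2-fold higher in iPSC, and it was the only member called higher at all 3 steps. Its later rises were 2.41 ± 0.477 (edgeR adjusted p = 0.000925) and 1.67 ± 0.380 (edgeR adjusted p = 0.00829). Oas1a, 146403 bases from Oas2 on chromosome 5, was measured at 0, 0.401 and 0 CPM in MEF, 0.760, 0.448 and 1.01 at Stage1, 0.977, 0.987 and 0.841 at Stage2 and 6.30, 4.58 and 5.02 in iPSC. The rise to iPSC was 2.49 ± 0.542 over Stage2 (edgeR adjusted p = 0.00531), while the rise at Stage1 had an adjusted p of 0.0137, and of 0.0557 without MEF replicate 3. Oasl2, a related gene, was called lower at Stage1 and higher again at Stage2, with 4.26, 4.61 and 2.89 CPM in MEF, 0.346, 1.43 and 1.09 at Stage1, 3.91, 3.53 and 4.72 at Stage2 and 6.05, 4.93 and 7.06 in iPSC. Its changes were -2.05 ± 0.422 at Stage1 (edgeR adjusted p = 0.000247) and 2.11 ± 0.420 at Stage2 (edgeR adjusted p = 0.000734). The Oas, Ifit and Ifitm genes have close relatives in the genome. The deposited counts hold separate summary lines for ambiguous reads and for alignments that are not unique. No source used here says more on how reads shared by these genes were counted.

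**Figure D3:**
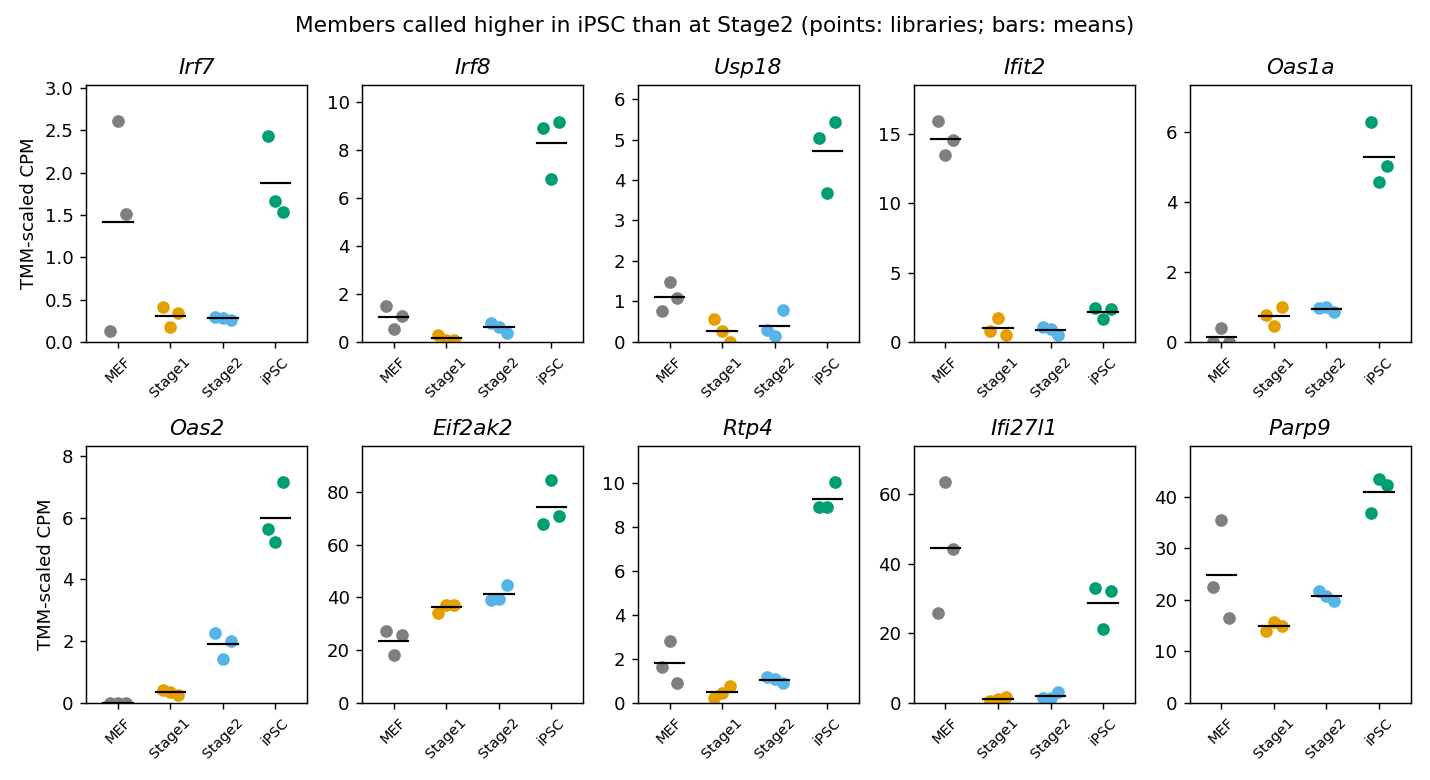
TMM-scaled CPM (y axis, linear, from 0, scaled for each gene) of the 10 members called higher in iPSC than at Stage2, with a point for each library and a bar for the mean of each group. Ifi27l1 and Ifit2 are as high or higher in MEF, whereas Irf8, Usp18, Rtp4, Oas1a, Oas2, Eif2ak2 and Parp9 have all 3 iPSC libraries above every other library.

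Eif2ak2, the kinase PKR that halts translation on viral RNA, was abundant throughout. It stood at 27.3, 17.9 and 25.6 CPM in MEF, 34.1, 37.3 and 37.3 at Stage1, 39.2, 39.4 and 44.9 at Stage2 and 68.1, 84.7 and 70.8 in iPSC. The order MEF, Stage1, Stage2, iPSC held without overlap between neighbouring groups, and the steps at Stage1 (0.62 ± 0.167, edgeR adjusted p = 0.00243) and iPSC (0.86 ± 0.163, edgeR adjusted p = 0.00227) were called. Samhd1, which depletes the nucleotides that viruses need, was called in no comparison, with group means between 33.9 and 48.6 CPM. Rsad2, the radical enzyme viperin, was scarce, near the floor in MEF at 0.182 ± 0.217 CPM and at 1.15 ± 0.623 in iPSC. Its difference between those groups (edgeR adjusted p = 0.00936) was not called without iPSC replicate 3 (adjusted p = 0.055). At Stage1 against MEF its change of 1.18 was not called (edgeR adjusted p = 0.226), but without MEF replicate 3 it was (3.09, adjusted p = 0.0315).

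The Ifitm genes encode small membrane proteins that hinder the entry of enveloped viruses, and 3 of them lie within a short stretch of chromosome 7. Per kilobase of exon, Ifitm2 and Ifitm3 had the highest levels of all 35 members in each of the 4 groups, with 344.9 and 214.9 CPM per kilobase in MEF. Ifitm1, 11234 bases from Ifitm2, moved apart from both. It stood at 2.38, 4.08 and 3.74 CPM in MEF, 41.4, 41.1 and 35.2 at Stage1, 114, 90.7 and 94.3 at Stage2 and 37.2, 30.8 and 43.4 in iPSC. It rose by 3.48 ± 0.206 at Stage1 (edgeR adjusted p = 4.36e-11) and 1.35 ± 0.173 at Stage2 (edgeR adjusted p = 1.22e-05), and iPSC lay -1.43 ± 0.174 from Stage2 (edgeR adjusted p = 6.97e-05), with no overlap at any of these steps. Ifitm2 was at 226 ± 25.8 CPM in MEF and 144 ± 12.9 at Stage1, a change of -0.64 ± 0.125 (edgeR adjusted p = 0.000137), and with library totals it was also called higher at Stage2 than at Stage1 (0.34, adjusted p = 0.0442). Ifitm3 was called in no comparison, with a 95% interval of -0.36 to 0.20 on the log2 scale at Stage1 against MEF and -0.41 to 0.15 in iPSC against MEF. The 3 genes made up 38.0% to 43.6% of the summed CPM of the 35 members in MEF libraries and 33.2% to 37.2% in iPSC libraries. Without them, the summed level of the other members was 527 CPM in MEF, 442 at Stage1, 506 at Stage2 and 576 in iPSC.

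**Figure D4:**
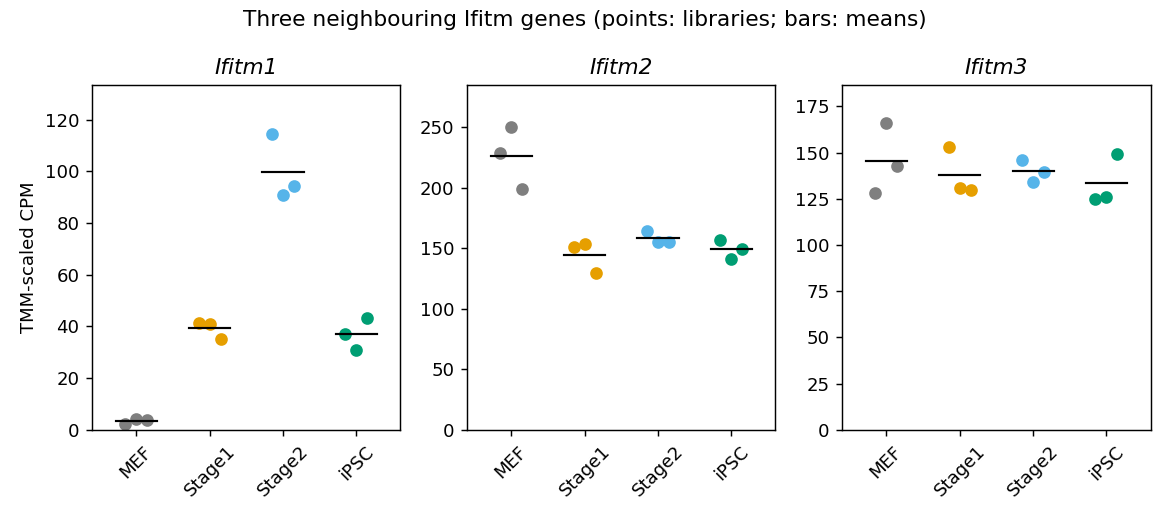
TMM-scaled CPM (y axis, linear, from 0) of Ifitm1, Ifitm2 and Ifitm3 in each library (points) with group means (bars). Ifitm1 rises from under 5 CPM in MEF to between 90.7 and 114 at Stage2 while the Ifitm3 libraries of all groups overlap.

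Bst2 (tetherin), which holds budding viruses at the cell surface, was measured at 4.01, 13.2 and 5.07 CPM in MEF, 28.2, 21.9 and 21.7 at Stage1, 16.2, 19.9 and 12.8 at Stage2 and 21.1, 18.8 and 21.9 in iPSC. It was higher at Stage1 by 1.66 ± 0.322 (edgeR adjusted p = 0.00014), although MEF replicate 2 (13.2) lay above the lowest Stage2 library (12.8).

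Parp9, Dtx3l and Parp14 lie together on chromosome 16, and the Parp9 and Dtx3l proteins act as a complex. Parp14 stood at 1.75, 4.48 and 2.77 CPM in MEF, 5.74, 9.31 and 12.2 at Stage1, 16.4, 12.1 and 13.3 at Stage2 and 11.4, 10 and 12.5 in iPSC. All libraries after MEF were above it, by 1.55 ± 0.323 at Stage1 (edgeR adjusted p = 0.000292). Dtx3l measured 9.77, 12.1 and 9.65 CPM in MEF, 11.3, 16.6 and 15.1 at Stage1, 23.4, 18.9 and 21.5 at Stage2 and 20.9, 27.2 and 22.1 in iPSC. It stood 2.22-fold higher in iPSC than in MEF. Its change at Stage1, 0.44, was not called (edgeR adjusted p = 0.0542). That change was called with DESeq2 (adjusted p = 0.0466), library totals (0.00693), without MEF replicate 2 (0.0288) or without Stage1 replicate 1 (0.0184). At Stage2 it rose by 0.57 ± 0.198 (edgeR adjusted p = 0.0285). The rise at Stage2 was not called without Stage1 replicate 1 or 3 (adjusted p = 0.143 and 0.0677) or Stage2 replicate 1 or 3 (0.111 and 0.0805). Parp9 was at 24.8 ± 9.74 CPM in MEF, 14.8 ± 0.922 at Stage1, 20.7 ± 1.02 at Stage2 and 40.8 ± 3.52 in iPSC. It was lower at Stage1 (-0.75 ± 0.222, edgeR adjusted p = 0.0052) and higher in iPSC than at Stage2 (0.98 ± 0.218, edgeR adjusted p = 0.0062). Without MEF replicate 2 the change at Stage1 was -0.39 (adjusted p = 0.0541). Exons of Parp9 and Dtx3l overlap on opposite strands, so reads of the shared part cannot be told apart here.

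Over the 3 steps, the most frequent course was a fall at Stage1 with no later call, seen in 9 members (25.7%, against 18.7% of all genes tested): Ifnar1, Ifnar2, Irf3, Ifih1, Isg15, Ifit1, Ifi35, Ifi44 and Ifitm2. A fall at Stage1, no call at Stage2 and a rise in iPSC was seen in 6 (17.1%, against 1.60% of all genes tested): Irf7, Usp18, Ifit2, Rtp4, Ifi27l1 and Parp9. In this second set, Ifi27l1 was also called higher at Stage2 with DESeq2 (adjusted p = 0.0215), library totals (0.0347), without MEF replicate 1 (0.0455) or without Stage1 replicate 3 (0.036). The same held for Rtp4 with library totals (0.0463) or without MEF replicate 2 (0.0484). For Parp9 it held with library totals (0.0155), in a fit of only these groups (0.00542) and without MEF replicate 2 (0.0149) or 3 (0.0264). Without MEF replicate 2, the falls of Irf7, Usp18 and Parp9 at Stage1 were not called (edgeR adjusted p = 0.0686, 0.0555 and 0.0541). The rises of Irf7 and Ifit2 in iPSC were lost in several fits without a single library. Each of the 6 thus left this course under at least 1 alternative. Irf9, Ifit3, Rsad2, Samhd1 and Ifitm3 (14.3%, against 11.4% of all genes tested) were called at none of the steps. No other course held more than 2 members.

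Macrophages express many interferon-induced genes, and most of their markers were lower at the first step, where 18 members were lower and 9 higher. By the series text, MEF was the only group not sorted for Oct4-GFP. The summed level of the 17 macrophage markers present was 201 to 249.9 CPM in MEF, 32.7 to 41.4 at Stage1, 43.6 to 56.6 at Stage2 and 28.9 to 35.8 in iPSC. Of the 16 tested, 13 were lower at Stage1 than in MEF. In the 3 later groups most of the sum came from Laptm5 and Cd68, which stood at 14.2 and 10.8 CPM in iPSC. At the last step, where Irf8, Usp18 and Rtp4 rose, 3 of the 16 markers were higher in iPSC than at Stage2 (Ctss at 0.921, C1qb at 0.375 and Lyz2 at 1.17 CPM in iPSC), 1 was lower (Cd68) and 12 were not called. C1qa had no count at Stage2 and a mean of 0.192 CPM in iPSC. The part of these cells in the members' changes was not tested at either step.

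Other genes of the pathway were taken from 6 lists with 141 genes present, 110 of them tested, none among the 35 members. The 19 interferon genes themselves had 109 counts in all 12 libraries together, of which 5 were in MEF, and none could be tested. At Stage1, 51 of the 110 were lower than in MEF (46.4%, against 36.1% of all genes tested) and 34 higher (30.9%, against 44.2%). Ifngr2, a subunit of the receptor for interferon gamma, was 59.4-fold lower (edgeR adjusted p = 1.5e-13), and Irgm1, an interferon-induced GTPase gene, 68.8-fold lower (edgeR adjusted p = 1.54e-13). Aim2, a sensor of cytosolic DNA, was 165-fold higher (edgeR adjusted p = 1.22e-13), at 0.581 ± 0.380 CPM in MEF and 94.1 ± 6.11 at Stage1.

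At Stage2, 36 of the 110 pathway genes (32.7%) rose over Stage1 and 14 (12.7%) fell, which places them above the background for rises, as Gbp2, an interferon-induced GTPase gene, illustrates with 1.24 ± 0.439 CPM at Stage1 and 11.3 ± 3.31 at Stage2 (edgeR adjusted p = 2.43e-05). Between Stage2 and iPSC, 10 were higher (9.09%) and 9 lower (8.18%), near the background of all genes at this step. Helz2, an interferon-induced helicase gene, was among the 10 (3.16-fold higher, edgeR adjusted p = 0.00097). Both counts at this step moved with the setting. The higher count ran from 4 without Stage2 replicate 1 to 15 in a fit of only these groups. The lower count ran from 4 without Stage2 replicate 3 to 15 in the same fit of only these groups. In iPSC against MEF, 42 were higher (38.2%, against 44.9% of all genes tested) and 46 lower (41.8%, against 35.8%). Tmem173, which encodes the adaptor STING of the DNA-sensing pathway, was 70.8-fold lower there (edgeR adjusted p = 1.37e-12).

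**Figure D5:**
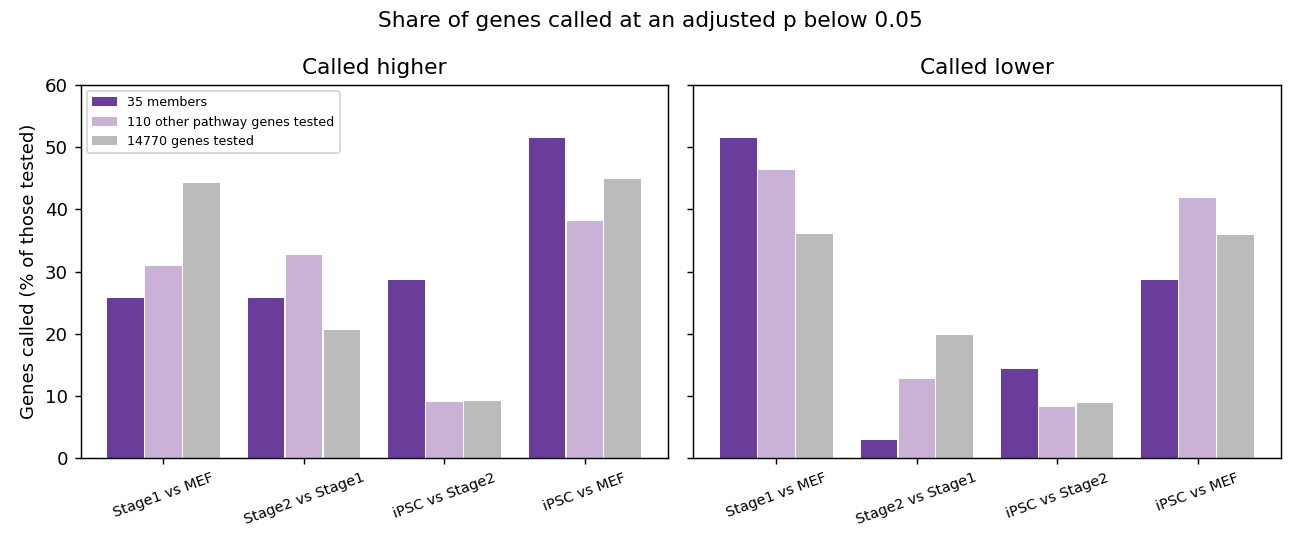
Percent of genes called higher (left) and lower (right) at an adjusted p below 0.05 in each comparison, for the 35 members, the 110 other pathway genes tested and all 14770 genes tested. At iPSC against Stage2 the members' bar for higher calls stands at 28.6% and that of the other pathway genes at 9.09%, beside 9.21% of all genes.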

How the data were processed

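The deposited files hold whole-number read counts per gene symbol, 1 file a library, with no normalization by the authors. Per the submitters' processing notes, the build was mm10 and the tools were TopHat2 2.0.9, Bowtie2 2.2.6, SAMtools 0.1.19, HTSeq 0.5.4p3 and DESeq2 1.12.4. No source used here gives the strand setting or the annotation version. The summary lines for reads outside genes stayed out of totals and tests.

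One model over all 12 libraries was fitted with edgeR 4.0.16 in R 4.3.3 (filterByExpr, TMM, a term for each group, robust quasi-likelihood test, Benjamini-Hochberg adjustment over all genes tested). The script was tested on simulated data. Levels are TMM-scaled CPM. The SE is the size of the log2 fold change divided by the root of the F statistic. Floors cover counting error only. Intervals of the log2 fold changes were built from this SE and so also hold the spread between libraries.

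The members and lists were chosen with earlier results of these data known. All libraries are printed for the 23 members called at 2-fold or more in some comparison with a group mean of at least 5 CPM. Other pathway genes are named among the largest called changes, where the higher group reaches 5 CPM, at most 6 per comparison and direction. Positions are GENCODE M21 (mm10), and promoters are RefSeq windows. Alternatives were other scalings, filters, DESeq2 1.42.0, a fit of only the groups compared, a replicate block, group names from the characteristics, and the removal of each library in turn.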

Additional observations from a re-analysis of the deposited data

How the results depend on the processing

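Of 63 changes of at least 2-fold in single members, 51 kept their direction and their call under the alternatives that kept the titles' groups and gave a value, and 12 lost the call under at least 1, with 0 reversed among 1188 values. A further 9 values were not obtained because the gene was filtered out, 3 with a filter of 1 CPM in 3 libraries and 6 in fits of only the groups compared. The 18 members called lower at Stage1 numbered 14 without MEF replicate 2 and 17 or 18 without any other single library. The calls lost without MEF replicate 2 were those of Irf7, Isg15, Usp18 and Parp9. A fit of only Stage1 and MEF gave 15. The 10 higher in iPSC than at Stage2 numbered 8 to 10 when each library was left out in turn. The 9 members higher at Stage2 than at Stage1 became 15 with library totals and 6 to 12 without single libraries. The 1 member called lower there, Ddx58, became 0 with RLE scaling, library totals, no filter, DESeq2 and the replicate block (adjusted p = 0.0572), and 2 in a fit of only these groups, with 0 to 2 without single libraries. The 5 members lower in iPSC than at Stage2 numbered 1 to 5 without single libraries. Naming the groups from the stage among the characteristics gave 1 member lower in the comparison called Stage1 against MEF, 5 lower at Stage2 against Stage1 and 18 lower in iPSC against Stage2, because the same names then stand for other libraries. Libraries with the same replicate number correlated at -0.0675 to 0.197 in their deviations from group means, over 0.1 in 3 of 18 pairs. The best match had the own number in 20 of 36 cases. Among Stage1, Stage2 and iPSC these correlations were all positive, at 0.0107 to 0.197, whereas those with MEF lay at -0.0675 to 0.05. The main fit did not read the numbers as pairs, and whether they mark pairs outside MEF was not settled. Among single genes, chosen after their values were seen, Zfp42 was lowest in replicate 1 of Stage1, Stage2 and iPSC (42.3, 144.3 and 162 CPM) and Nod1 highest (13.1, 8.01 and 7.64 CPM). The replicate block changed no other count by over 1.5 times. Depth limits the members near the floor, such as Rsad2 and Oas1a in MEF, Isg15 outside MEF and Irf7 at Stage1 and Stage2.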

Other observations

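The spread between libraries of a group was widest in MEF, as a description without a test and over partly different members. Over members with at least 10 counts in every library of a group, the highest library exceeded the lowest by a median of 1.52-fold in MEF (27 members), 1.18-fold at Stage1, 1.27-fold at Stage2 and 1.27-fold in iPSC. MEF replicate 2 was the highest of the 3 in 16 of the 27 members and replicate 1 the lowest in 13. At Stage2, replicate 1 was the highest in 15 of 26 members. The widest spread among these in MEF was that of Bst2, at 3.3-fold between 4.01 and 13.2 CPM. Isg15 and Ifi44, which had fewer than 10 counts in MEF replicate 1 and are not in this set, stood at 11.9 and 11.6 CPM in MEF replicate 2 and at 0.877 and 1.00 in MEF replicate 1.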
